A study of Mus musculus with 16 samples.

Results

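The question addressed here is whether transcript levels differed between litters whose dams received cypermethrin and litters whose dams received vehicle. Levels were measured in pools of cells captured as migrating cortical GABAergic cells of the mouse embryo, over stressed and non-stressed dams together. Samples were taken by their labelled treatment, which placed 8 embryos in the cypermethrin arm and 8 in the vehicle arm, so that 16 of the 16 samples of the series entered the comparison, with restraint stress as a term of the model. All 24539 genes of the count table were considered, and the 13224 with enough counts were tested.

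The CD1 dams were dosed by oral gavage each morning on gestational days 11 to 14, either with 10 mg/kg alpha-cypermethrin or with corn oil. Within each arm, 4 dams were left unrestrained and 4 were restrained under bright light in 45 min sessions from day 12, and on the last day gavage came 90 min, and the end of restraint 15 min, before euthanasia. The 4 groups were therefore vehicle non-stressed, vehicle stressed, cypermethrin non-stressed and cypermethrin stressed, 4 embryos each. Every embryo came from a separate litter, was at embryonic day 14.5, was recorded as male and carried the GAD67-GFP+/- reporter, which marks cells that use the Gad1 locus. About 1000 GFP-positive cells per embryo were cut by laser from the cortical plate of 10 sections of fixed brain, each 10 µm thick, and RNA was sequenced from the pooled cells. All arms thus share the reporter, gavage and fixation, no arm was left without gavage, and a pool of cut cells can include parts of neighbouring cells.

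Alpha-cypermethrin is a synthetic pyrethroid insecticide, and pyrethroids slow the closing of voltage-gated sodium channels, which prolongs the inward current of nerve cells. Cortical interneurons are born in the ganglionic eminences of the ventral forebrain and move tangentially into the cortex, guided by chemokines, neuregulins and other cues and steered by their own early electrical activity, GABA and calcium signals. They arrive before most of their synapses form, so that channels, receptors and guidance genes are already transcribed in migrating cells.

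Total counts ran from 2291283 to 4324129 per library, with a mean of 3335580 ± 555249 in the vehicle arm and 3681180 ± 661267 in the cypermethrin arm (SD, n = 8 each, exact permutation p = 0.290 with labels permuted within stress groups, two-sided). Genes with at least 1 count ranged from 12153 to 16536 per library, and the exact permutation p for the arms was 0.680. The fewest such genes were found in vehicle stressed replicate 1, cypermethrin stressed replicate 1 and the third and the fourth replicate of cypermethrin non-stressed. Cypermethrin stressed replicate 1 held 13605 and the next library, vehicle stressed replicate 3, held 13726. No wide gap in detection thus separates the 4 from the rest. Of these 4 libraries 3 belonged to the cypermethrin arm. These are also the libraries that an earlier account of the data found apart on the first principal components, and values without them are given beside the results that turn or move most. Vehicle stressed replicate 1 went against its labelled sex: it held 4528 CPM (counts scaled to a common library size by the trimmed mean of M values, TMM) of Xist and a summed 0.476 CPM of Y-linked genes, against at least 198 CPM of the Y-linked genes in each of the other 15 libraries. It was kept under its label.

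The captured cells were checked against interneuron genes. The summed level of Gad1, Gad2, Slc32a1, Dlx1, Dlx2, Dlx5, Lhx6 and Sox6 was 955 ± 139 CPM in the vehicle arm and 972 ± 151 CPM in the cypermethrin arm (SD, n = 8 each, exact permutation p = 0.820), and it lay between 728 and 1245 CPM in every library. The ranges of the arms overlapped. Lhx6, Gad2 and Sox6 had mean levels of 280, 271 and 188 CPM over all libraries. The sum thus mostly follows these genes and says little of less abundant members. Markers of other cells were present at higher summed levels. Over the 16 libraries these were 8107 to 12155 CPM for glutamatergic neuron genes, 1602 to 2018 CPM for radial glia and progenitor genes, and 1861 to 3810 CPM for Cajal-Retzius cell genes. Each of these sums exceeded the interneuron sum in every library. The lists differ in their number of genes, so the share of each cell type was not measured. The levels below are those of a mixed pool and not of interneurons alone.

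No gene differed between the arms at the threshold used. With edgeR's quasi-likelihood test and a Benjamini-Hochberg adjusted p under 0.05, 0 of 13224 genes were called (0%), and the smallest adjusted p was 0.412, for Cpeb1. At an unadjusted p under 0.05 there were 566 genes, 4.28% of those tested, where 5% would be 661, and 280 of them were fitted higher (2.12%) and 286 lower (2.16%) with cypermethrin. DESeq2 called 1 gene, limma voom called 0, and limma voom with sample quality weights called 3, with 742, 509 and 714 genes at an unadjusted p under 0.05. A code in the library descriptions divides the samples into 7 and 9, and edgeR called 0 genes within each code alone (unadjusted p under 0.05 for 492 and 337). Over all genes the fitted differences were balanced around 0: 6741 (51%) were higher and 6483 (49%) lower, with a median log2 difference of 0.009.

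The precision of these estimates depended on the spread between libraries and on depth. Each library came from a separate litter, so differences between litters and between captures cannot be told apart in that spread. The common dispersion of 0.35 corresponds to a biological coefficient of variation of 0.592. Standard errors of the log2 differences had a median of 0.383, and for 5999 genes (45.4%) the 95% confidence interval lay inside a 2-fold change in either direction. Among the 3306 genes with the highest levels the standard errors had a median of 0.19, and 3168 of 3306 intervals (95.8%) lay inside a 2-fold change. For these abundant transcripts a main difference of 2-fold or more was outside the interval in nearly all cases, while for most genes of low level it was not.

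**Figure D1:**
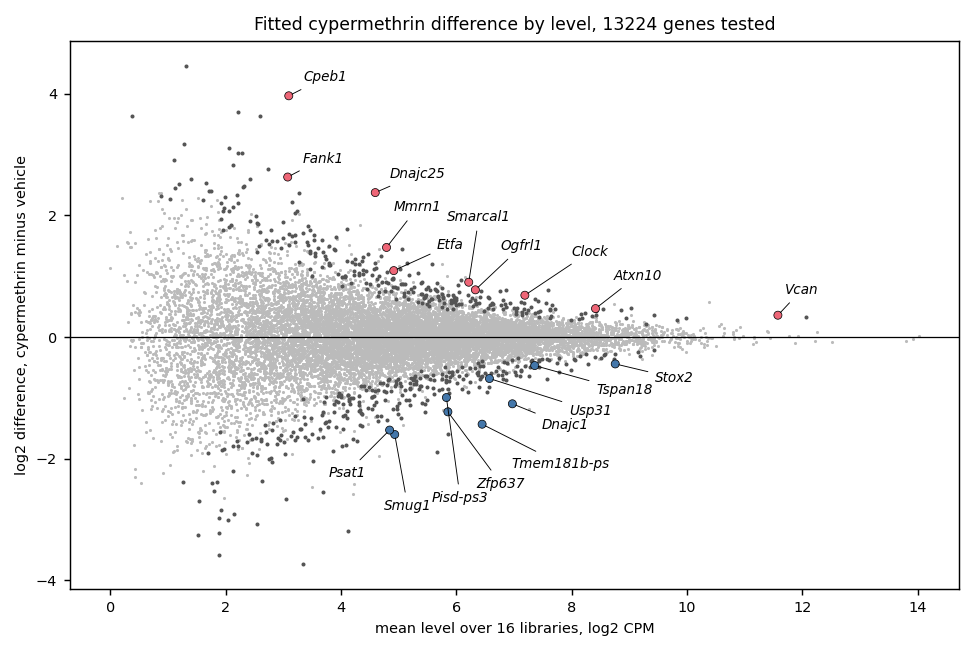
The fitted log2 difference, cypermethrin minus vehicle, is plotted for each of the 13224 tested genes against its mean level over 16 libraries in log2 CPM. Dark points have an unadjusted p under 0.05 (566 genes), red and blue points are the named higher (10) and lower (9) genes with the smallest p, and the scatter narrows as the level increases, around a median of 0.009.

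The genes described next are from the 10 higher and 10 lower with the smallest unadjusted p, which ran from 3.12e-05 to 0.00248. They were chosen by that p, so their values are a description of where the estimates were most extreme and none of them passed the adjusted threshold in edgeR. Differences are given as log2 cypermethrin minus vehicle with the standard error, over 8 and 8 embryos, and levels as the lowest, median and highest CPM of an arm. In bulk RNA of this kind, fewer cells of a type and less RNA per cell cannot be told apart.

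Cpeb1, on chromosome 7 from 81347026 to 81455465 of mm10, encodes an RNA-binding protein that controls polyadenylation and translation of messenger RNAs in oocytes and neurons. Its level was 0, 0.513 and 2.02 CPM in the vehicle arm and 0.997, 3.67 and 75.7 CPM in the cypermethrin arm. The vehicle arm held 23 counts in all and the cypermethrin arm 369, of which 132 and 162 were in cypermethrin non-stressed replicates 3 and 4. Most of the cypermethrin counts thus came from a pair of libraries among those with few genes detected, although the other 6 cypermethrin libraries lay between 0.997 and 6.36 CPM and the arms overlapped. The log2 difference was 3.97 ± 0.80 (edgeR adjusted p = 0.412), and it was the single gene that DESeq2 called (4.04, adjusted p = 0.00189). Without cypermethrin non-stressed replicate 4 it was 3.31.

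Dnajc25 and Dnajc1 both encode J-domain proteins, which stimulate the ATPase of Hsp70 chaperones, and were fitted in opposite directions. Dnajc25 had levels of 1.57, 4.91 and 20.7 CPM with vehicle and 5.07, 18.3 and 194 CPM with cypermethrin, a log2 difference of 2.38 ± 0.56. The highest value was in cypermethrin non-stressed replicate 3, and the difference was 1.55 without that library. Dnajc1, whose product sits in the membrane of the endoplasmic reticulum, had levels of 52.4, 165.5 and 284 CPM with vehicle and 51.7, 74.4 and 151 CPM with cypermethrin. Its log2 difference was -1.10 ± 0.27, the smallest p among lower genes, and limma voom with quality weights called it (-1.16, adjusted p = 0.0254). The arms overlapped: vehicle stressed replicate 3 lay at 52.4 CPM, and 3 vehicle non-stressed libraries also lay under the cypermethrin maximum. Dnajc1 lies on chromosome 2 from 18195654 to 18392830 and overlaps Mllt10 on the other strand, so its counts are uncertain, since the use of strand in counting is not given in the sources used here.

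Other higher genes fell in no single group. Atxn10, the gene whose repeat expansion causes a spinocerebellar ataxia in people, had 222, 283 and 343 CPM with vehicle and 294, 389.9 and 532 CPM with cypermethrin, a log2 difference of 0.47 ± 0.13. Clock, a core transcription factor of the circadian oscillator, had 79.4, 103 and 156 CPM against 124, 145 and 300.5 CPM, a difference of 0.69 ± 0.20. Vcan, which encodes the matrix proteoglycan versican, had 1972, 2686 and 3260 CPM against 2663, 3303 and 4462 CPM, a difference of 0.36 ± 0.11. These 3 were the most abundant of the 10 and had the smallest standard errors, and in each the upper part of the vehicle range overlapped the lower part of the cypermethrin range.

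Etfa, a subunit of the mitochondrial electron transfer flavoprotein, had 11.8, 19.3 and 27.8 CPM with vehicle and 18.8, 35.2 and 76.5 CPM with cypermethrin, a log2 difference of 1.09 ± 0.32. Smarcal1, a DNA annealing helicase that acts at stalled replication forks, had 19.5, 54.5 and 65.2 CPM against 55.8, 77.5 and 187 CPM, a difference of 0.90 ± 0.27. Ogfrl1 had 34.2, 62.3 and 77.5 CPM against 64.3, 82.1 and 221 CPM, a difference of 0.78 ± 0.23. For Smarcal1 and Ogfrl1 the lowest cypermethrin library exceeded the vehicle median, and for Etfa it lay just under it.

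Mmrn1, which encodes multimerin 1, a glycoprotein of platelets and endothelium, had 5.07, 14.6 and 24.1 CPM with vehicle and 14.0, 30.8 and 135 CPM with cypermethrin, a log2 difference of 1.47 ± 0.43 that was 0.99 without cypermethrin non-stressed replicate 3. Fank1, a gene best known from testis, had 0, 1.71 and 7.57 CPM against 2.24, 10.0 and 49.98 CPM, a difference of 2.63 ± 0.74, and it overlaps Dhx32 on the other strand. Over the 10 higher genes the highest library was cypermethrin non-stressed replicate 4 in 5, cypermethrin non-stressed replicate 3 in 4 and cypermethrin stressed replicate 1 in 1. All 10 maxima thus lay in the 3 cypermethrin libraries with few genes detected, and the part of detection in these differences was not tested. Without those 3 libraries and vehicle stressed replicate 1, all 10 differences were positive and 7 had an unadjusted p under 0.05 (all genes, 4.39%). The choice of these genes by p in the same libraries favours both, so neither is independent support. Most differences were smaller without the 4 libraries, with Cpeb1 at 1.81 ± 1.01, Dnajc25 at 0.85 ± 0.55, Smarcal1 at 0.29 ± 0.20, Atxn10 at 0.24 ± 0.11, Clock at 0.35 ± 0.17 and Vcan at 0.26 ± 0.10.

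**Figure D2:**
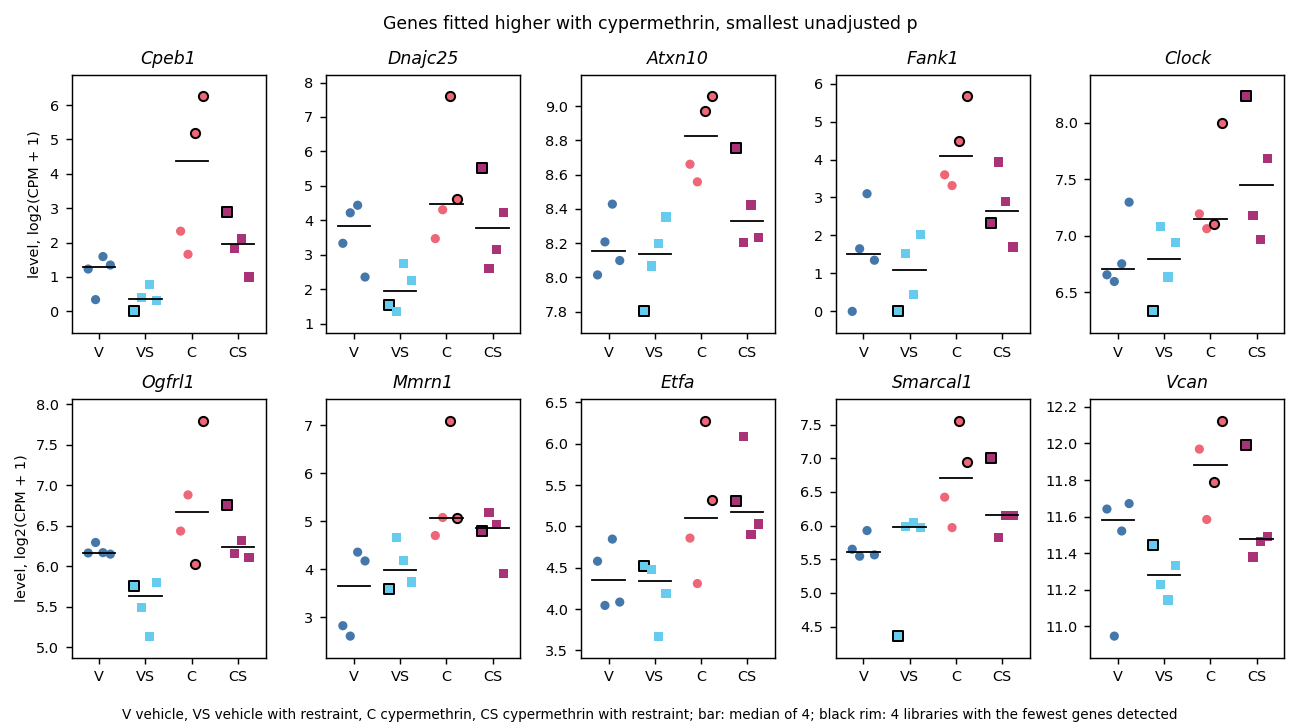
Levels of the 10 higher genes are shown per library as log2(CPM + 1) on a separate axis for each gene, with the 4 groups side by side, the median of each group as a bar and the 4 libraries with the fewest genes detected outlined in black. The highest points of all 10 genes carry that outline, and in each gene at least 1 vehicle point reaches the level of a cypermethrin point.

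Among lower genes, Tspan18 encodes a member of the tetraspanin family of membrane proteins. Its level was 159, 191 and 215.5 CPM in the vehicle arm and 105, 142 and 158 CPM in the cypermethrin arm, and the arms did not overlap, with a gap of 157.8 to 158.8 CPM. The log2 difference was -0.47 ± 0.14 (adjusted p = 0.996), and leaving out each library in turn gave -0.51 to -0.42.

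Psat1, which catalyses the second step of serine synthesis, had 19.98, 31.3 and 86.9 CPM with vehicle and 4.20, 11.8 and 30.7 CPM with cypermethrin, a log2 difference of -1.53 ± 0.44. The highest cypermethrin library was exceeded by 5 of 8 vehicle libraries.

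Smug1, a DNA glycosylase that removes uracil, had 15.6, 24.7 and 111 CPM with vehicle and 5.49, 16.6 and 27.2 CPM with cypermethrin, a log2 difference of -1.60 ± 0.44 that was -1.15 without vehicle non-stressed replicate 1. Zfp637, a zinc-finger gene, had 35.4, 53.4 and 206 CPM against 13.5, 34.5 and 53.3 CPM, a difference of -1.23 ± 0.37 that was -0.83 without vehicle stressed replicate 1. More than 1 vehicle library was high for each gene, and without the 4 libraries with few genes detected the differences were -1.04 and -0.42. Usp31, a gene of the deubiquitinase family, had 85.4, 105 and 168 CPM against 49.1, 75.6 and 90.4 CPM, a difference of -0.68 ± 0.19. Stox2, which encodes a winged-helix protein, had 392 to 684 CPM against 239 to 443 CPM, a difference of -0.44 ± 0.13.

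The other two lower genes are pseudogenes, whose reads can be shared with near-identical copies, so that their levels are uncertain. Tmem181b-ps, on chromosome 17, had 86.0, 116 and 179 CPM with vehicle and 4.33, 63.9 and 76.5 CPM with cypermethrin, a log2 difference of -1.43 ± 0.40, and the arms did not overlap. Pisd-ps3 had 24.6, 64.5 and 167 CPM against 14.8, 34.1 and 89.5 CPM, a difference of -0.99 ± 0.29. Over the 9 lower genes described here the highest library was vehicle non-stressed replicate 1 in 3, vehicle stressed replicate 1 in 3 and another vehicle library in each of the other 3.

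**Figure D3:**
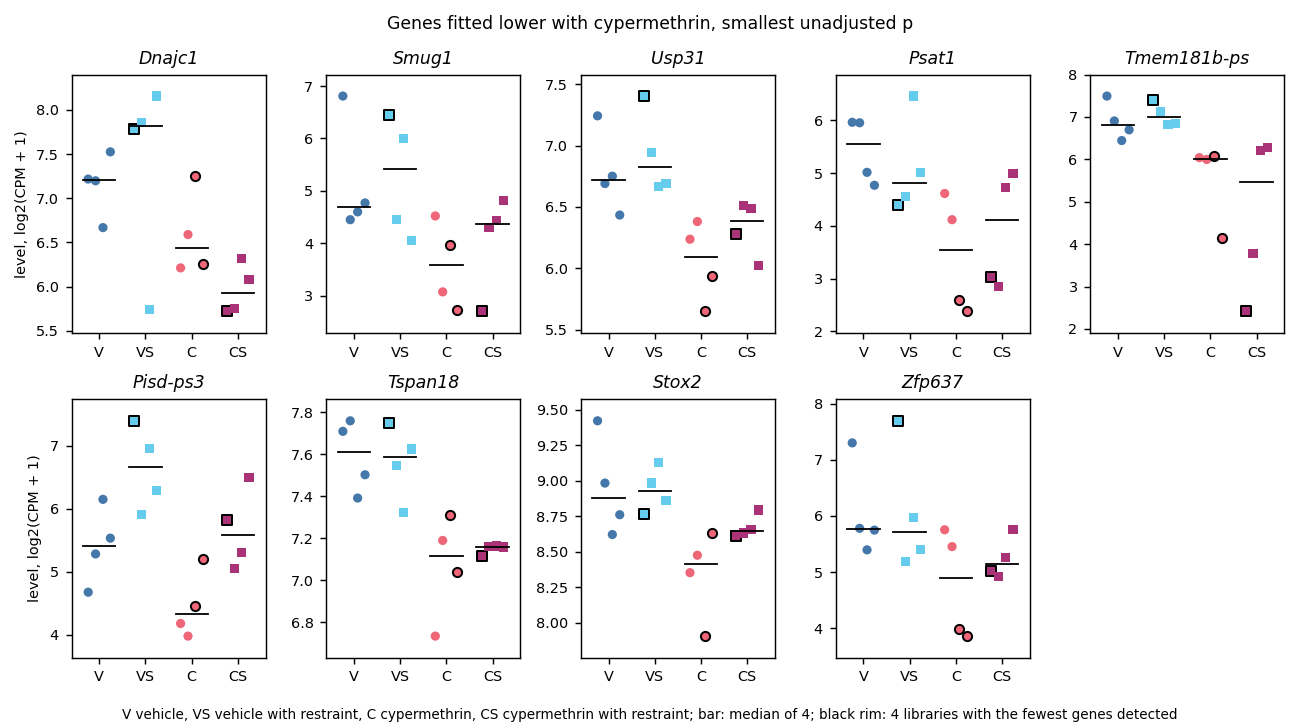
Levels of 9 of the 10 lower genes are shown per library as log2(CPM + 1), with groups, medians and outlines drawn as for the higher genes. Tspan18 and Tmem181b-ps have no cypermethrin point at the height of a vehicle point, while the vehicle points of Smug1 and Zfp637 are spread widely, with a few far above the rest.

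All 8 libraries of one arm lay above all 8 of the other for 4 genes, which is 0.0302% of the genes tested. Tspan18, Tmem181b-ps and Pak3 were lower with cypermethrin (0.0227%) and Zscan18 was higher (0.00756%). Pak3 encodes a p21-activated kinase of neurons that regulates the actin cytoskeleton, and its level was 277 to 360.0 CPM with vehicle and 178 to 275 CPM with cypermethrin, a log2 difference of -0.37 ± 0.12. Zscan18, a zinc-finger gene, had 0.712 to 13.9 CPM with vehicle and 15.7 to 26.6 CPM with cypermethrin, a difference of 1.22 ± 0.46. Both were named after their values were seen, and the gap between the arms was small in each: 275.4 against 276.5 CPM for Pak3 and 13.9 against 15.7 CPM for Zscan18.

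The main effect averages the non-stressed and the stressed litters, which share no samples, so each was also examined alone. With edgeR 0 genes were called in non-stressed litters (0%, with 491 genes or 3.71% at an unadjusted p under 0.05) and 0 in stressed litters (0%, with 713 or 5.39%). In non-stressed litters 2.38% were higher and 1.33% lower at an unadjusted p under 0.05, and in stressed litters 2.24% and 3.15%. The interaction of cypermethrin with stress, which tests whether the difference itself differed, was called for 0 genes (0%, with 622 or 4.7% at an unadjusted p under 0.05, smallest adjusted p = 0.985). At that unadjusted p the signed log2 difference was more positive in stressed than in non-stressed litters for 1.61% of the tested genes and more negative for 3.09%. Across all 13224 genes 50.4% had the same sign in the non-stressed as in the stressed litters, and Pearson's r of the differences over genes, which are not independent replicates, was 0.000886. Among the 3306 genes with the highest levels these were 50.3% and 0.0302. Of the genes at an unadjusted p under 0.05 in non-stressed litters 54.4% had the same sign in stressed litters, and of those in stressed litters 46% had the same sign in non-stressed litters. The number at an unadjusted p under 0.05 in both was 25, where the product of the shares gives 26.5, and 16 of the 25 had the same sign.

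Those 16 genes included Cpeb1, Dnajc25, Fank1, Ogfrl1 and Etfa, which were higher in both, and Smug1, Tspan18, Zfp637, Usp31 and Pisd-ps3, which were lower in both. Cpeb1 had a log2 difference of 4.45 ± 1.08 without stress and 3.21 ± 1.15 with stress. Dnajc25 had 2.26 ± 0.79 and 2.51 ± 0.83, and Pisd-ps3 -1.01 ± 0.42 and -0.98 ± 0.41. For these genes the differences in non-stressed and stressed litters differed by less than the sum of their standard errors, although the choice of genes by the main effect favours such likeness. Dnajc1 was further apart, at -0.54 without and -1.65 with stress (interaction unadjusted p = 0.0325), as was Mmrn1, at 2.24 and 0.71 (unadjusted p = 0.0639), and the interaction passed the adjusted threshold for neither.

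**Figure D4:**
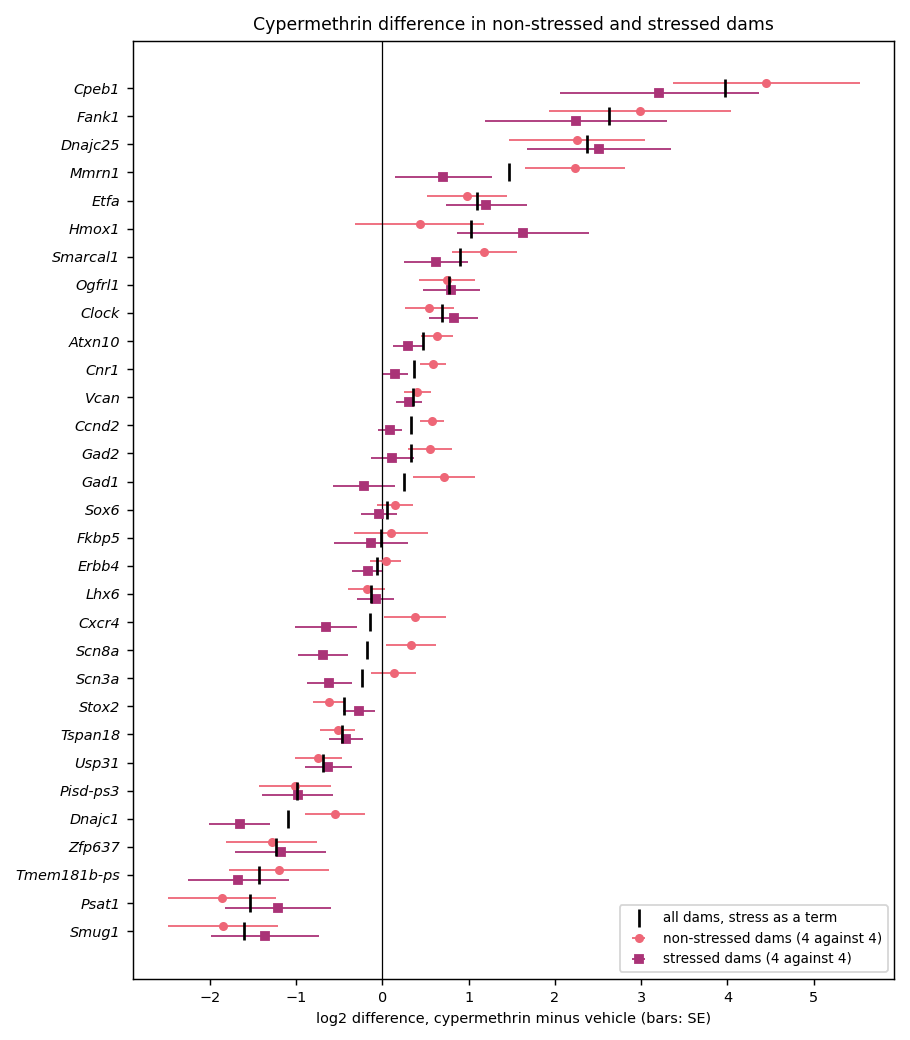
For 19 of the 20 genes with the smallest p and the 12 tested genes of a fixed interneuron, channel and stress set, points give the log2 difference of cypermethrin minus vehicle in non-stressed and in stressed litters with standard errors, and black ticks give the difference over all dams. Scn8a, Scn3a, Cxcr4, Gad1, Sox6, Erbb4 and Fkbp5 have points on opposite sides of 0. The points of Mmrn1 and Dnajc1 are also well apart but lie on 1 side, while those of Cpeb1 differ by less than the sum of their standard errors.

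Listed gene groups are described next by counts and medians, and for 11 of the 33 lists the median changed sign without the 4 libraries with few genes detected. The counts of every list stand beside 51% fitted higher and 4.28% at an unadjusted p under 0.05 over all genes tested. Sodium channels are the known target of pyrethroids. Of 16 listed genes 8 were tested, 3 were fitted higher and 5 lower, 0 had an unadjusted p under 0.05 (all genes, 4.28%), and the median log2 difference was -0.02 (all genes, 0.009). Scn3a, the main channel gene of the embryonic brain, had 219, 296 and 482 CPM with vehicle and 179 to 523 CPM with a median of 229.6 CPM with cypermethrin, a difference of -0.24 ± 0.20. Scn2a, which gains in importance later in development, was at 129 ± 30.2 and 129 ± 26.2 CPM (SD, n = 8 each), a difference of 0.00 ± 0.18. Scn8a, which encodes the channel of nodes of Ranvier and axon initial segments, had 98.3, 161 and 420 CPM with vehicle and 106, 152 and 267 CPM with cypermethrin, a difference of -0.18 ± 0.23 that was 0.07 without vehicle stressed replicate 1. The intervals of 6 of the 8 channels lay inside a 2-fold change. Without the 4 libraries with few genes detected 5 of 9 were higher (median 0.05).

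For 7 of the 8 channel genes the fitted difference had opposite signs in non-stressed and stressed litters, in both orders. Over all genes tested 50.4% had the same sign, and the 8 genes share the same libraries and are not independent. Scn8a had a log2 difference of 0.33 in non-stressed and -0.69 in stressed litters (interaction unadjusted p = 0.0192), and Scn3a had 0.13 and -0.61 (unadjusted p = 0.0517). Vehicle stressed replicate 1 held 420 CPM of Scn8a, against 161 to 177 CPM in the other 3 libraries of its group. The adjusted interaction p was at least 0.985 for both. Proteins that bind or tether sodium channels were also close to 0: of 11 tested 5 were higher, with a median of -0.01, and Nedd4l, the ubiquitin ligase that removes channels from the membrane, had -0.14 ± 0.12.

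Over all 16 libraries other ion channels also had medians near 0. Of 15 calcium channel genes 6 were higher, with a median log2 difference of -0.09, and the low-voltage-activated channel genes Cacna1h and Cacna1g had -0.42 ± 0.21 and -0.43 ± 0.22. Of 15 genes for chloride transport 7 were higher (median -0.01), with Clcn5 at -0.71 ± 0.42, which was -0.31 without vehicle stressed replicate 3. Of 25 potassium channel genes 10 were higher (median -0.03), and 1 had an unadjusted p under 0.05. That gene was Kcnq3, a subunit of the M-current channel, with 23.2, 69.7 and 78.5 CPM with vehicle and 63.0, 85.3 and 124 CPM with cypermethrin, a difference of 0.59 ± 0.23. Without the 4 libraries with few genes detected 10 of 26 potassium channel genes were higher (median -0.20). Of these 26 genes 3 then had an unadjusted p under 0.05 (all genes, 4.39%).

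Genes of GABA synthesis and transport were split, with 4 of 7 higher and a median log2 difference of 0.03. Gad2, which makes GABA for synaptic release, had 145.5, 229 and 323 CPM with vehicle and 207, 272 and 456 CPM with cypermethrin, a difference of 0.33 ± 0.18. Gad1, which makes most cellular GABA and carries the reporter, had 0.25 ± 0.27 (0.04 without cypermethrin non-stressed replicate 4), whereas the vesicular transporter Slc32a1 had -0.64 ± 0.38. Without the 4 libraries with few genes detected Gad2 was at -0.01, and 3 of 8 genes of the list were higher (median -0.09). Of 14 GABA receptor genes 7 were higher (median -0.05), with Gabbr1, a subunit of the metabotropic receptor, at -0.25 ± 0.18, which was -0.08 without vehicle stressed replicate 1.

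Transcription factors of the interneuron lineage had a median log2 difference of -0.06, with 8 of 19 higher and 1 at an unadjusted p under 0.05. Without the 4 libraries with few genes detected 8 of 21 were higher (median -0.21). Of these 21 genes 5 then had an unadjusted p under 0.05 (all genes, 4.39%). Lhx6 and Sox6, both needed by interneurons born in the medial eminence, had -0.13 ± 0.15 and 0.06 ± 0.14, and both intervals lay inside a 2-fold change. Dlx1 and Dlx2, which drive GABAergic fate, were fitted lower at -0.46 ± 0.23 and -0.59 ± 0.37, and Meis2, a homeobox gene expressed in the lateral eminence, was fitted higher at 0.59 ± 0.22 with 50.8 CPM in the lowest vehicle and 441 CPM in the highest cypermethrin library. Of 8 neuropeptide and product genes 6 were higher, with a median of 0.26 and 0 at an unadjusted p under 0.05, among them Nos1 at 0.30 ± 0.18, Npy at 0.32 ± 0.25 and Sst at 0.22 ± 0.21.

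Of the receptors and cues that guide interneurons 14 of 24 were higher, with a median log2 difference of 0.06, and 2 had an unadjusted p under 0.05. Cnr1, the cannabinoid receptor that steers migration and axon growth, had 525, 602 and 685 CPM with vehicle and 623, 726 and 1120 CPM with cypermethrin. Its difference was 0.37 ± 0.11 with a 95% confidence interval of 0.13 to 0.60, made up of 0.59 without and 0.15 with stress (interaction unadjusted p = 0.0507). Dcc, a netrin receptor, had 899 ± 99.2 and 1119 ± 196 CPM (SD, n = 8 each), a difference of 0.32 ± 0.11. Both estimates were positive and neither passed the adjusted threshold. Without the 4 libraries with few genes detected 11 of 25 genes of the list were higher (median -0.07).

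Of the other receptors of migration, Erbb4, the neuregulin receptor, had a log2 difference of -0.06 ± 0.13. Cxcr4, the receptor of Cxcl12, had -0.14 ± 0.27, with a 95% confidence interval of -0.69 to 0.42. Its difference was 0.38 in non-stressed and -0.65 in stressed litters (interaction unadjusted p = 0.0542). The ligand Nrg1 had -0.71 ± 0.35 and the repellent Slit2 0.84 ± 0.43. Among cytoskeletal genes of migration 13 of 24 were higher, with a median of 0.01, and 20 of 24 intervals lay inside a 2-fold change. Dcx, which stabilises microtubules in migrating neurons, was at 3893 ± 489 and 3939 ± 562 CPM (SD, n = 8 each), a difference of 0.02 ± 0.09, and the tau gene Mapt was at -0.16 ± 0.12.

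Glutamate receptor genes were fitted lower in 13 of 18, with a median log2 difference of -0.10 and 0 at an unadjusted p under 0.05, and Grm5 stood on the other side at 0.34 ± 0.17. Of 23 genes of synaptic vesicles and SNARE complexes 15 were lower (median -0.04), with the fusion regulator Cplx2 at 0.38 ± 0.16. Receptors and enzymes for dopamine, serotonin and acetylcholine were higher in 8 of 12 (median 0.15), although Drd2 had -2.27 ± 1.12 with 44.4 CPM in 1 vehicle library and at most 14.1 CPM in the others. Without the 4 libraries with few genes detected 6 of 15 of these genes were higher (median -0.19).

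**Figure D5:**
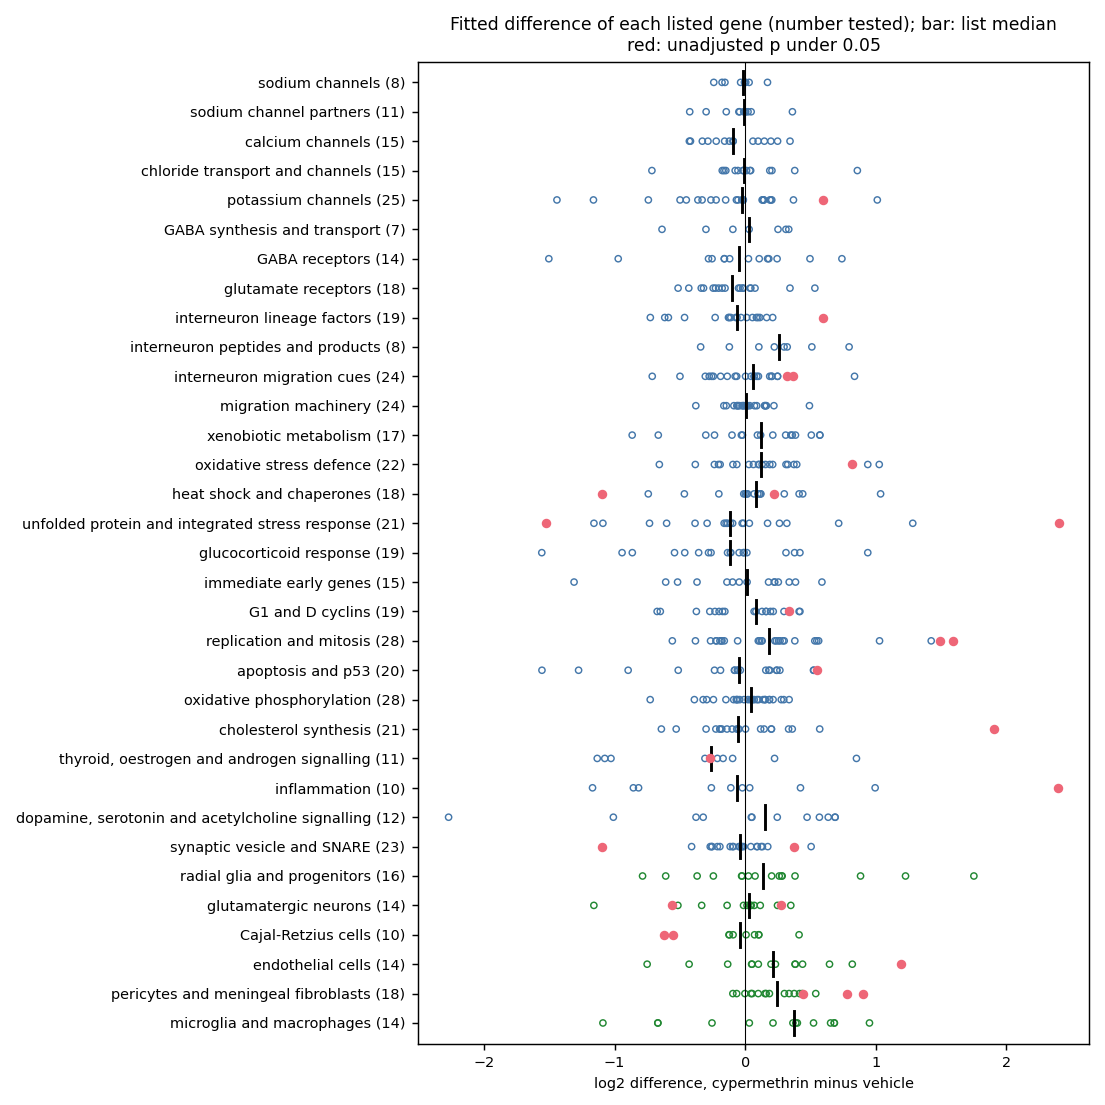
Each point is the fitted log2 difference, cypermethrin minus vehicle, of 1 gene in a list of at least 5 tested members, with the number tested in brackets, blue for pathway lists, green for markers of other cell types and red for an unadjusted p under 0.05. List medians, drawn as bars, lie between -0.26 for thyroid, oestrogen and androgen signalling and 0.38 for microglia and macrophages.

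Genes that metabolise foreign chemicals or answer to chemical stress had medians slightly above 0. Of 17 tested genes of xenobiotic metabolism 10 were higher (median log2 difference 0.12) and 0 had an unadjusted p under 0.05, with Gstm7, a glutathione transferase, at 0.57 ± 0.35 and Cyp1b1 at 0.39 ± 0.31. In oxidative stress defence 15 of 22 were higher (median 0.12), and Gclm, the regulatory subunit of the enzyme that starts glutathione synthesis, had 9.04, 23.5 and 32.6 CPM with vehicle and 13.9, 33.8 and 84.9 CPM with cypermethrin, a difference of 0.82 ± 0.35. Hmox1, which encodes haem oxygenase 1, had 2.36, 8.89 and 9.59 CPM against 2.49, 14.2 and 31.1 CPM, a difference of 1.03 ± 0.54. The interval of Hmox1 ran from -0.08 to 2.14, so neither 0 nor a 4-fold change lay outside it.

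Among heat shock genes and chaperones 13 of 18 were higher (median log2 difference 0.08), and 2 had an unadjusted p under 0.05: Hsp90aa1, a cytosolic chaperone, at 0.22 ± 0.10, and Dnajc1 in the other direction. In the unfolded protein and integrated stress response 14 of 21 were lower (median -0.11), with Psat1 lower as above and Sesn2, a sestrin that restrains growth signalling, at 2.40 ± 1.05 from mean levels of 1.505 and 5.215 CPM. Of genes that respond to glucocorticoids 14 of 19 were lower (median -0.11), with 0 at an unadjusted p under 0.05, Fkbp5, a standard reporter of the hormone, at -0.01 ± 0.30 and the clock gene Per1 at -0.54 ± 0.39. Immediate early genes were higher in 8 of 15 (median 0.01), with Fosl2 at -0.52 ± 0.26, and without the 4 libraries with few genes detected in 5 of 16 (median -0.29).

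Cell cycle genes were examined as G1 regulators and as genes of replication and mitosis. Ccnd2, the D cyclin of intermediate progenitors, had 2995, 3823 and 4326 CPM with vehicle and 3832, 4446 and 6660 CPM with cypermethrin, a log2 difference of 0.33 ± 0.11, made up of 0.58 without and 0.09 with stress (interaction unadjusted p = 0.0172). The lowest cypermethrin library was above the vehicle median, and the gene overlaps a transcript model on the other strand. In the list of G1 regulators and D cyclins 11 of 19 were higher (median 0.08), and without the 4 libraries with few genes detected 6 of 19 (median -0.06).

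Of 28 replication and mitosis genes 18 were higher (median log2 difference 0.18), and 2 had an unadjusted p under 0.05. Bub1b, a kinase of the spindle checkpoint, had 0, 3.29 and 14.9 CPM with vehicle and 5.23, 11.6 and 50.2 CPM with cypermethrin, a difference of 1.59 ± 0.67. Birc5, which encodes survivin, had 1.49 ± 0.70. Without the 4 libraries with few genes detected 16 of 28 were higher and the median was 0.07, and in the second description code alone 12 of 28 were higher (median -0.15).

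The remaining pathways held 1 gene or none at an unadjusted p under 0.05. Of apoptosis and p53 genes 9 of 20 were higher (median log2 difference -0.05), with the survival gene Mcl1 at 0.55 ± 0.20, and without the 4 libraries 11 of 20 (median 0.04). Of oxidative phosphorylation genes 16 of 28 were higher (median 0.04), with 26 of 28 intervals inside a 2-fold change and Ppargc1a, a coactivator of mitochondrial genes, at -0.73 ± 0.48, which was -0.21 without vehicle stressed replicate 1. Of cholesterol synthesis genes 9 of 21 were higher (median -0.05), and without the 4 libraries 12 of 21 (median 0.03). In thyroid, oestrogen and androgen signalling 9 of 11 were lower (median -0.26), among them the thyroid hormone receptor Thra at -0.27 ± 0.13, which overlaps Nr1d1. Of 10 inflammation genes 4 were higher (median -0.07), and the interferon regulator Irf7 had 2.40 ± 1.02 on medians of 0.58 and 2.11 CPM.

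Markers of other cell types were compared in the same way, since a cut region holds more than GFP-positive cells. Of pericyte and meningeal fibroblast genes 15 of 18 (83.3%) were fitted higher (all genes, 51%), with a median log2 difference of 0.24. Lum at 0.78 ± 0.27, Vtn at 0.90 ± 0.36 and Col3a1 at 0.44 ± 0.19, genes of extracellular matrix, had an unadjusted p under 0.05 (16.7%, all genes 4.28%). The summed level of the list was 1546 to 3948 CPM with vehicle and 1939 to 4491 CPM with cypermethrin (exact permutation p = 0.182, adjusted over 12 library values 0.877). Without the 4 libraries with few genes detected 10 of 18 were higher and the median was 0.04. Their part in the levels of Vcan and Mmrn1, which such cells and vessels also express, was not tested.

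Endothelial genes were higher in 11 of 14 (median log2 difference 0.21), with Emcn, a surface sialomucin, at 1.19 ± 0.50, and without those libraries in 7 of 14 (median -0.03). Microglia and macrophage genes were higher in 10 of 14 (median 0.38), with P2ry12, a receptor of resting microglia that overlaps Med12l, at -1.09 ± 0.57. Their summed level was highest in cypermethrin non-stressed replicate 3, at 781 CPM, against at most 316 CPM in the vehicle arm, and without the 4 libraries the median was -0.32. The lean of both lists towards cypermethrin was thus not seen in the other 12 libraries.

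Glutamatergic neuron genes were higher in 8 of 14 (median log2 difference 0.03), with Tbr1, a transcription factor of early-born deep-layer neurons, at 0.28 ± 0.10 and the upper-layer factor Cux2 at -0.56 ± 0.21. Radial glia and progenitor genes were higher in 10 of 16 (median 0.14), with Prom1 at 0.88 ± 0.46, which was 0.37 without cypermethrin non-stressed replicate 3, and without the 4 libraries 7 of 16 were higher (median -0.03). Of Cajal-Retzius genes 5 of 10 were higher (median -0.04), with Ndnf at -0.62 ± 0.27 and Ebf3 at -0.55 ± 0.27, and without the 4 libraries 1 of 10 was higher and the median was -0.40. Of erythroid genes 4 were tested, and Hba-a1, Hba-a2, Hbb-bs, Hbb-bt, Hbb-b1 and Hbb-b2 were at 0 in all libraries where the table lists them. Of oligodendrocyte precursor and astrocyte genes 4 were tested and 3 were higher. The other listed members had too few counts. Olig1, Olig2 and Sox10 held 35, 16 and 64 counts with vehicle and 0, 1 and 7 with cypermethrin, each in at most 5 libraries. Gfap, Aqp4 and Aldh1l1 held 2, 8 and 9 against 0, 1 and 2, and S100b held 34 against 38. Over the 12 library values compared, which were depth, detection and summed markers, the smallest exact permutation p was 0.182 and the adjusted p was 0.877 for each.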

How the data were processed

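RNA was measured in 16 libraries of laser-captured cells. The authors deposited a table of raw read counts per gene symbol, 24539 genes by 16 samples, of which 18733 genes had a count. The submitters' processing notes name STAR 2.5 and the build mm10. The annotation, the counting software, its use of strand and any filter were not given in the sources used here. Samples were grouped by their labelled treatment, and replicates, numbered in accession order, are embryos of separate litters.

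Counts were analysed with edgeR 4.0.16 in R 4.3.3: filterByExpr over the 4 groups with a count minimum of 10 kept 13224 genes, libraries were scaled by TMM, and a robust quasi-likelihood model with terms for cypermethrin and stress was fitted to all libraries (13 residual and a median of 14.5 prior degrees of freedom). Group means gave the interaction and the differences within stress groups. Standard errors were derived from F. The p-values were adjusted by Benjamini-Hochberg over all tested genes, with a threshold of 0.05. Single values per library were compared by exact permutation over 4900 arrangements. Alternatives, 29 in all, covered scaling, filter, model, tool (DESeq2 1.42.0, limma 3.58.1) and samples, and the fits were tested on simulated data.

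Named genes were the 10 higher and 10 lower of smallest unadjusted p (models named only by clone or locus numbers, 1 in each direction, were passed over), 12 tested genes of a fixed set of 15 (Fos and Bdnf had too few counts, and the third is tested as Scn2a), and the member with the smallest p in each of 33 lists with at least 5 tested members. Results of 3 genes that the rule or the lists would give are not reported here. Where further members are named as examples, they were picked after their values were seen. The comparison, lists and genes were chosen with earlier results of these data known. Positions are from GENCODE M21, where 23879 symbols matched, 57 of the 58 named genes had a unique entry and 11 overlap another gene of the table. Intervals cover the spread between libraries.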

Additional observations from a re-analysis of the deposited data

Results flagged for a closer look

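Within an arm of 8 libraries, single values of named genes were checked for a gap to the nearest other library above Dixon's 95% critical value of 0.526 of the range, on log2(CPM + 1). Of 112 such checks 17 were positive. The 5% that goes with this critical value holds for independent, normally distributed values. The genes checked share the same libraries, and many were chosen by p in them. The 17 therefore cannot be read as an excess over 5%. High values in cypermethrin non-stressed replicate 3 were Mmrn1 at 135.2 CPM, Meis2 at 441.3 CPM and Lum at 371.4 CPM, and low values there were Mapt at 385.8 CPM and Ppargc1a at 0.797 CPM. Cypermethrin non-stressed replicate 4 was high for Gad1 at 151.3 CPM and Gabbr1 at 367.6 CPM. Vehicle stressed replicate 1 was high for Scn8a at 420.0 CPM and low for Smarcal1 at 19.5 CPM and Prom1 at 1.43 CPM, and cypermethrin stressed replicate 1 was low for P2ry12 at 0.289 CPM. These 4 libraries are those with the fewest genes detected, and they hold 11 of the 17 values.

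The other 6 were spread over 6 libraries. Lhx6 was low in vehicle non-stressed replicate 3 at 194.5 CPM, Meis2 was low in vehicle non-stressed replicate 2 at 50.8 CPM and Kcnq3 was low in vehicle stressed replicate 3 at 23.1 CPM. Tbr1 was high in vehicle non-stressed replicate 1 at 1103 CPM, Fosl2 was high in cypermethrin stressed replicate 4 at 70.0 CPM and Cxcr4 was low in cypermethrin stressed replicate 2 at 25.6 CPM.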

How the results depend on the processing

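The count of called genes over all dams was 0 under 27 of the 29 alternatives. DESeq2 called 1 (Cpeb1), and limma voom with quality weights called 3 (Tuba1c at 2.32, adjusted p = 0.00199, Alcam at 0.59 and Dnajc1 at -1.16, both 0.0254). With edgeR over all libraries Tuba1c had only 0.99 ± 0.58 (unadjusted p = 0.104) and Alcam 0.46 ± 0.15 (unadjusted p = 0.00457). In non-stressed litters voom with quality weights called 1 (Tuba1c at 2.77, adjusted p = 0.0119). In stressed litters DESeq2 called 2 (Dnajc1 at -1.67 and Tnfrsf22 at -3.23, both 0.0332), and leaving out single libraries gave 0 to 1, the 1 being Dnajc1 at -1.97 without vehicle stressed replicate 3 (adjusted p = 0.00299). Interaction calls were 0 under all 25 alternatives run. For the interaction and the stress groups, each code alone was not run, and group means and no stress term do not apply. Genes at an unadjusted p under 0.05 numbered 1286 of 18733 with no filter and 337 in the second description code alone, against 507 to 724 without single libraries. The interaction had 1203 with no filter. Non-stressed litters had 1028 with no filter and 809 without cypermethrin non-stressed replicate 1, and stressed litters 1275 with no filter and 1114 without vehicle stressed replicate 4.

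The 20 genes chosen by p kept their sign wherever they were fitted. Without the 4 libraries with few genes detected, 16 had an unadjusted p under 0.05 (all genes, 4.39%). Within each code of the library descriptions alone, 14 did in the first (all genes, 3.42%) and 10 in the second (2.47%). The choice of these genes by p in the same libraries favours both the kept sign and the small p. Neither is therefore independent support. The sign turned for Gad1 in the first code (-0.28) and Drd2 there (1.16). In the second code it turned for Sox6 (-0.022), Cxcr4 (0.41), Erbb4 (0.032), Scn3a (0.10), Fkbp5 (0.083) and Gabbr1 (0.048), and without the 4 libraries for Gad2 (-0.0068), Fkbp5 (0.019) and Ppargc1a (0.23). With voom it turned for Fkbp5 (0.050), and with quality weights for Gabbr1 (0.0043) and Prom1 (-0.044). Leaving out single libraries gave -0.027 to 0.11 for Sox6, -0.23 to 0.025 for Cxcr4, -0.33 to 0.068 for Scn8a and -0.13 to 0.080 for Fkbp5. Leaving out 1 library also brought these differences nearer to 0: cypermethrin non-stressed replicate 3 for Meis2 (0.36) and Lum (0.50), cypermethrin non-stressed replicate 4 for Irf7 (1.45), cypermethrin stressed replicate 2 for Nos1 (0.17) and Gclm (0.46), vehicle stressed replicate 3 for Per1 (-0.35), vehicle stressed replicate 1 for Scn3a (-0.12), vehicle non-stressed replicate 2 for Fosl2 (-0.34) and vehicle non-stressed replicate 1 for Drd2 (-1.17). The cause was not tested. No paired analysis was possible because the labels give the groups no shared replicate numbers. Depth left the genes of the table below the count minimum untested.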
